A study of Mus musculus with 84 samples.

Results

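Mast cells with a gain-of-function IL-4 receptor alpha chain were compared with mast cells lacking that chain. Both were small-intestinal MMC9s, the IL-9-producing mucosal mast cells that gather in the gut during experimental food allergy. One bulk RNA-seq library of IL4RaY709F MMC9s was set against one of IL4Ra-/- MMC9s, and the WT library of the same experiment served as the point between them. Of 55471 gene IDs in the count table, 6319 had at least 50 reads in the larger of the 2 mutant libraries and were described. The mice were of the BALB/c strain. Recipients were WT mice sensitized to ovalbumin and reconstituted with bone marrow progenitors that were WT, IL-4RaY709F (a gain-of-function receptor per the labels) or IL-4Ra-/- (loss of function). All recipients then received ovalbumin by mouth 7 times, at 3 challenges per week, before MMC9s were sorted from the small intestine. Each RNA sample was a pool of 12 to 20 biological replicates, so each genotype had 1 library, no difference below has a replicate check and no p-value was computed. Because the hosts were WT mice, host cells carried an intact receptor in all 3 groups, and the sources used here give neither the gate of the bulk sort nor how donor cells were separated from host cells. A further 80 WT MMC9s, sequenced singly after a sort for c-Kit+ ST2+ Lin- cells with high IL-4GFP, low β7-integrin and no IL-17RB2, were used to show whether a gene was read in individual MMC9s.

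IL-4Rα is the shared chain of the receptors for IL-4 and IL-13. It pairs with the common gamma chain or with IL-13Rα1, and ligand binding activates Janus kinases that phosphorylate STAT6, a transcription factor. The tyrosine changed in Y709F sits in an inhibitory motif that recruits the phosphatases SHP-1, SHP-2 and SHIP, and its change to phenylalanine removes that brake. IL-4 is a growth and activation factor of mouse mast cells, and BATF and IRF4 form a DNA-binding pair best known from T cells, where it is needed to express IL-9.

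The site that separates the gain-of-function allele from WT is shown first, because every comparison below rests on it. It lies in the last coding exon, exon 11 of 11 of transcript Il4ra-201 (GENCODE M21, an 810-codon reading frame), at GRCm38 chr7:125576731-125576763 on the plus strand. Codons 704 to 714 of the reference read, with the codon of the Y709F tyrosine (chromosome 7, 125576746 to 125576748) in capitals:

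Il4ra codons 704 to 714: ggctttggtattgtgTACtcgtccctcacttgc

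The deposited counts are per gene, so this codon could not be read in the libraries themselves.

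Levels are given as CPM, reads scaled to a common library total of 1000000, and ratios as IL4RaY709F over IL4Ra-/-, each with a 95% interval that covers counting error only, since reads are not independent molecules. A gene was called higher or lower in IL4RaY709F when it had at least 50 reads in the larger library, differed at least 2-fold and had an interval that excluded no difference. The libraries held 2521791 (IL4RaY709F), 2330628 (IL4Ra-/-) and 2299793 (WT) reads in genes, so 3 reads, the floor used for a gene with none, stood for 1.18 to 1.31 CPM. Mast cell identity was checked with 20 genes, of which 19 reached the read minimum. Their summed level was 72235 CPM in IL4Ra-/-, 77373 CPM in WT and 107903 CPM in IL4RaY709F. In reads these sums were 183688, 176829 and 250958, and as a share of each library's gene reads WT was the lowest. Kit, Fcer1a, Cpa3, Mcpt1 and Gata2, the defining markers, were abundant in all 3 libraries.

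Il4ra itself (ENSMUSG00000030748, plus strand of chromosome 7 from 125552120 to 125579474), mutated in both donors, had 350 reads in IL4Ra-/-, 806 in WT and 1831 in IL4RaY709F. These were 138, 353 and 787 CPM, so the transcript was lowest in the library labelled as the knockout and highest in the gain-of-function library. The ratio of the mutants was 5.72 (5.1 to 6.43). Gene-level counts do not show which exons were read, so the reads left in IL4Ra-/- do not show an intact transcript.

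Across the 6319 genes, 292 were higher in IL4RaY709F (4.62%) and 221 were lower (3.5%). The higher genes had a median fold of 2.36, and 44 of them differed at least 4-fold. The lower genes had a median fold of 2.87, with 72 past 4-fold. Single WT MMC9s carried the reads of most genes: 6164 of the 6319, 279 of the 292 higher genes and 146 of the 221 lower genes had 10 reads or more in at least 2 of the 80 cells. The higher genes were thus near the share of all genes, and the lower genes below it. Of the lower genes, 54 were read at that level in no WT cell and 59 were immunoglobulin genes, against 7 and 0 of the higher genes and 84 and 62 of all genes tested. In bulk RNA, fewer cells of a type and less RNA per cell cannot be told apart, which touches every ratio here. Scaling by total gene reads in place of the trimmed mean of M-values (TMM) moved every log2 ratio by -0.24, gave 145 higher and 359 lower genes, and moved the median over all genes from 0.09 to -0.15. All 221 lower genes and 145 of the 292 higher genes were called under both scalings. Genes of 200 to 1000 reads had a robust SD of their log2 ratios of 0.40, and their median counting error was 0.12.

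The place of the WT library, which was not used to choose genes, was as follows. WT was between the mutants for 261 of the 292 higher genes (89.4%) and 186 of the 221 lower genes (84.2%), and for 2890 of all 6319 genes (45.7%). Genes chosen for a 2-fold gap leave more room for any further library between the mutants, so the share over all genes is not the level to be met without any change, and the shares are a description. Among the higher genes with WT between, 150 had WT nearer to IL4RaY709F on the log scale and 111 nearer to IL4Ra-/-. For 22 higher and 24 lower genes each of the 2 steps, from IL4Ra-/- to WT and from WT to IL4RaY709F, was at least 2-fold. WT was the highest of the 3 libraries for 10 higher genes and the lowest for 21.

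**Figure D1:**
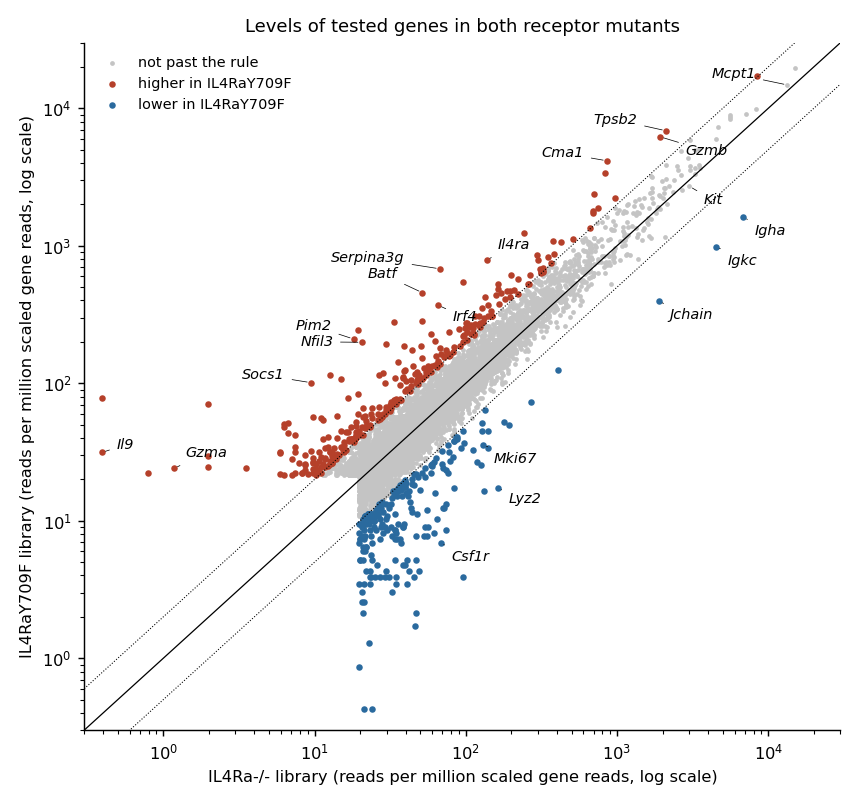
Level of each tested gene in the IL4Ra-/- library (horizontal) and the IL4RaY709F library (vertical), in CPM on log axes. Red and blue points are the 292 higher and 221 lower genes, dotted lines mark 2-fold, and 2 genes with no reads in 1 of the libraries are left out. Batf, Nfil3, Socs1, Pim2 and Serpina3g lie far above the diagonal, the mast cell genes Kit and Mcpt1 lie near it, and immunoglobulin and macrophage genes lie below it.

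None of the other receptor chains and ligands was called. Il2rg, the common gamma chain, had a log2 ratio of 0.56 with 797 reads in IL4Ra-/-, 987 in WT and 1072 in IL4RaY709F. Il13ra1, the partner chain for IL-13, had 13, 1 and 1 reads, below the read minimum, and the decoy receptor Il13ra2 had none. Il4, a ligand, stood at 176, 146 and 233 CPM (log2 0.40, and just below 0 after adjusting for exon length). Il13, the other ligand and a driver of goblet cell mucus, stood at 337 CPM in IL4Ra-/-, 289 CPM in WT and 629 CPM in IL4RaY709F. Its ratio between the mutants, 1.87 (1.72 to 2.03), did not reach 2-fold, and here WT was the lowest library rather than the middle one.

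Of the kinases, STATs and adaptors of the pathway, 5 of 14 tested members were higher and none lower, with a median log2 ratio of 0.64 against 0.09 over all genes (0.40 against -0.15 when scaled by total reads). Jak1, the kinase bound to IL-4Rα, had 1804 reads in IL4Ra-/-, 2433 in WT and 5503 in IL4RaY709F, a ratio of 3.34 (3.16 to 3.52). Stat5a, used by receptors with the common gamma chain, stood at 159, 264 and 437 CPM, a ratio of 2.75 (2.45 to 3.1). Pik3cd, a catalytic subunit of PI3-kinase, was 2.43-fold higher (2.1 to 2.81). Gab2, an adaptor, and Jak2 were 2.16-fold and 2.03-fold higher, and both fell short of 2-fold when scaled by total reads. Stat6, the principal transducer of IL-4Rα, did not follow the receptor: it had 308 CPM in IL4Ra-/-, 410 in WT and 364 in IL4RaY709F, a log2 ratio of 0.24 with WT highest, which turned just below 0 when scaled by total reads. Jak3 and Stat3 had log2 ratios of 0.72 and 0.79, and Tyk2 of 0.05.

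Inducible feedback inhibitors, which limit signalling once it has begun, were among the higher genes. Socs1, a SOCS-box protein that blocks Janus kinases, had 24 reads in IL4Ra-/-, 86 in WT and 235 in IL4RaY709F, a ratio of 10.7 (7.02 to 17). Socs3 had 85, 281 and 648 reads, a ratio of 8.34 (6.64 to 10.6). Cish, a STAT5-induced inhibitor read in 67 of 80 WT cells, stood at 297, 546 and 862 CPM, a ratio of 2.9 (2.67 to 3.16). For these 3 genes WT lay between the mutants, 1.88 log2 above IL4Ra-/- for Socs3 and 0.88 above it for Cish. Ptpn1, which encodes the phosphatase PTP1B, was 2.08-fold higher (1.81 to 2.39), a call lost when scaled by total reads. The enzymes recruited to the inhibitory tyrosine were not among the genes called. Ptpn6 (SHP-1) had a log2 ratio of 0.10, Inpp5d (SHIP) of 0.14 and Ptpn11 (SHP-2) of 0.58. In all, 4 of 13 tested phosphatases and feedback inhibitors were higher and none lower, with a median log2 ratio of 0.40.

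STAT dimers bind palindromes with a 3- or 4-base gap, so the promoter windows of the genes named here, from 250 bases before to 50 after the RefSeq start (GRCm38.p6), were searched for TTCNNNGAA and TTCNNNNGAA. Both motifs are their own reverse complements, so 1 search covers both strands, and matches were allowed to overlap. Matches of 5 higher genes are shown as examples of the letters a STAT protein would read, chosen from the genes on which the results turn, with the match in capitals:

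Cish, first match, chr9:107296649-107296677, plus strand: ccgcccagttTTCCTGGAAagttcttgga
Cish, second match, chr9:107296660-107296688, plus strand: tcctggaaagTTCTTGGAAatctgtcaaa
Socs3, chr11:117969502-117969530, minus strand: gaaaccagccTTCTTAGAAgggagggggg
Serpina3f, chr12:104214413-104214441, plus strand: tcagttctatTTCCTAGAAatcacccatt
Serpina3g, chr12:104236104-104236132, plus strand: taagttatagTTCCCAGAAatcacccggt
Il9, chr13:56482422-56482451, minus strand: agagcatcttTTCTGAGGAAtggtatttcc

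The Cish pair starts at positions 0 and 11 from the annotated start, and the matches of Socs3, Serpina3f, Serpina3g and Il9 start at -154, -121, -33 and -184. Among the other higher genes named here, the windows of Gzmb, Orai1, Bcl2l1, Il7r, Fas, Csrnp1 and Ifitm3 also held a match, as did those of the lower genes Mcm5 and Top2a. The windows of Batf, Irf4, Nfil3, Socs1, Pim2, Il2ra, Prss34 and Il4ra held no match. Some named genes, Dusp4, Phlda1 and Mcpt2 among them, had no window. Single matches were not listed for genes of chromosome 18, such as Csf1r, Cd74 and Ldlrad4. As a set the higher genes were close to the background: 28 of 221 with a window (12.7%) held either motif, against 563 of 4981 tested genes (11.3%), 22 of 129 lower genes (17.1%) and 3983 of all 27025 windows (14.7%). The AP-1 motif TGANTCA, also searched on both strands, was in 18 of the 221 (8.14%) and in 8 of the 129 lower genes (6.2%). It was in 4.82% of tested genes and in 7.93% of all windows. A match is a run of letters, and binding was not measured.

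BATF and its partners are the factors the study names, and Batf and Irf4 stood out. So did Nfil3, which was counted in the same list but is not an AP-1 or IRF gene. Batf (chromosome 12, 85686669 to 85709087, plus strand), a basic leucine zipper protein of the AP-1 family, had 131 reads in IL4Ra-/-, 344 in WT and 1061 in IL4RaY709F. Its levels were 51.5, 151 and 456 CPM, a ratio of 8.86 (7.38 to 10.7) made of near-equal steps of 1.55 and 1.60 log2, and it was read in 51 of 80 WT cells. Irf4 (chromosome 13, 30749226 to 30766976, plus strand), which binds DNA together with BATF, stood at 65.7, 94.1 and 369 CPM, a ratio of 5.62 (4.76 to 6.68). Most of its span lay between WT and IL4RaY709F (1.97 log2) rather than between IL4Ra-/- and WT (0.52). Nfil3 (chromosome 13, 52967209 to 52981073, minus strand), a basic leucine zipper repressor that IL-4 induces in lymphocytes, stood at 20.4, 84.9 and 199 CPM, a ratio of 9.71 (7.28 to 13.2), with the larger step below WT (2.05 against 1.23 log2). Jund was 2.3-fold higher, but not when scaled by total reads. The other AP-1 genes were not called: Junb, Jun, Fosb and Fos had log2 ratios of 0.88, 0.52, 0.26 and -0.06. Of 15 tested genes of the BATF, IRF and AP-1 list, Nfil3 included, 4 were higher and none lower, and the median log2 ratio was 0.33.

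**Figure D2:**
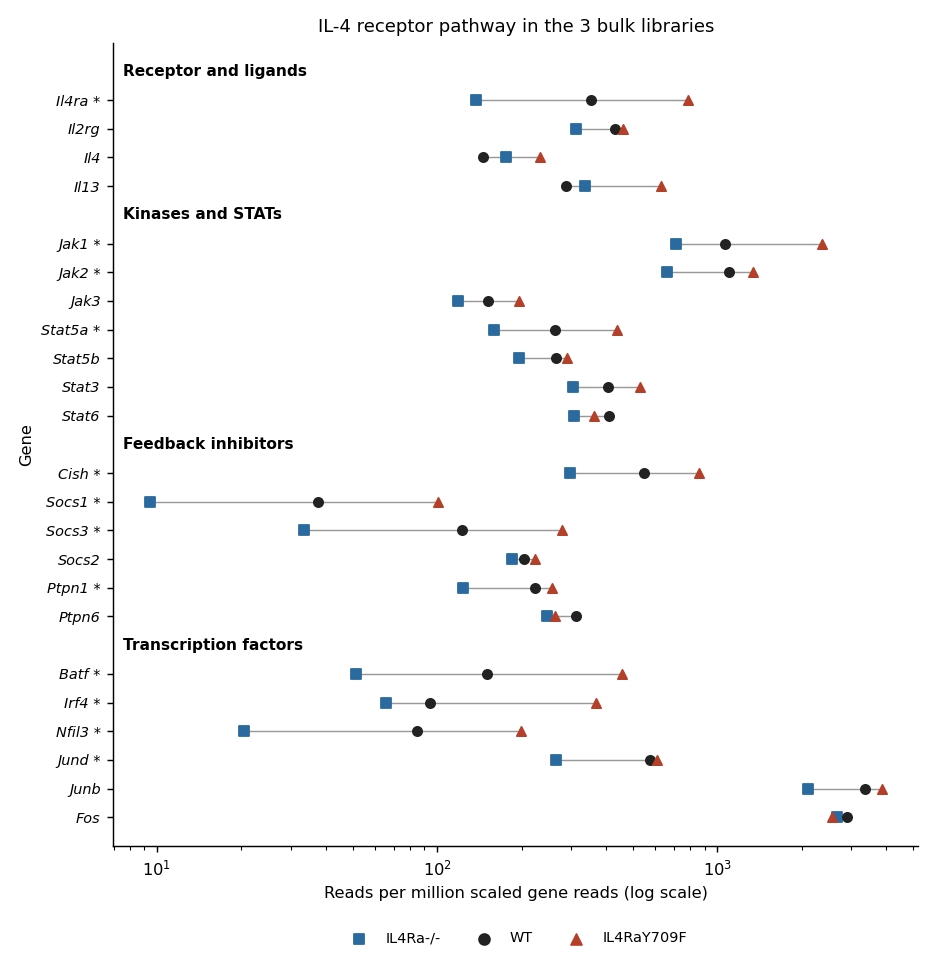
Level of IL-4 receptor pathway genes in the IL4Ra-/- (squares), WT (circles) and IL4RaY709F (triangles) libraries, in CPM on a log axis. An asterisk marks a gene called between the mutants, and each symbol is 1 pooled library with no error bar. Il4ra, Jak1, Stat5a, Cish, Socs1, Socs3, Batf, Irf4 and Nfil3 run in the order IL4Ra-/-, WT, IL4RaY709F, while Stat6, Ptpn6 and Fos have WT at the right.

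A list of genes induced by IL-4 or STAT6 in other cells shares Il4ra, Socs1, Cish, Batf, Irf4 and Nfil3 with the groups above. Of its 15 tested members, 9 were higher and 1 lower, with a median log2 ratio of 1.28, or 1.04 when scaled by total reads. Pim2, a survival kinase, had 46 reads in IL4Ra-/-, 126 in WT and 488 in IL4RaY709F, a ratio of 11.6 (8.56 to 16.1). Tgm2, a transglutaminase induced by IL-4 in macrophages, had 110, 152 and 244 reads (log2 1.28). Bcl2l1, which encodes the survival protein BCL-XL, was 2.15-fold higher (59, 77 and 116 reads), though not when scaled by total reads. Mrc1, the mannose receptor of alternatively activated macrophages, was the lower member, with 99 reads in IL4Ra-/-, 23 in WT and 22 in IL4RaY709F. Textbook IL-4 targets of macrophages and B cells were nearly unread: Arg1 had 5, 2 and 0 reads, Fcer2a 4, 5 and 6, and Chil3 none.

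Among 14 tested cytokine genes, 5 were higher and 1 lower (median log2 ratio 0.65). Il9 (chromosome 13, 56479277 to 56482246, minus strand), the growth factor and mast cell cytokine that gives MMC9s their name, had 1 read in IL4Ra-/-, 13 in WT and 73 in IL4RaY709F. With 1 read below, the interval of the ratio (79.8) runs from 13.9 to 3195, and 10 reads or more of Il9 were found in 1 of 80 WT cells, so a pool's Il9 count can rest on few cells. Il10, a regulatory cytokine, had 16, 23 and 118 reads, a ratio of 8.06 (4.76 to 14.6). Il6, an inflammatory cytokine read in 56 of 80 WT cells, stood at 299 CPM in IL4Ra-/-, 359 in WT and 789 in IL4RaY709F, a ratio of 2.64 (2.42 to 2.87). Both Il10 and Il6 had WT close to IL4Ra-/- and the gain-of-function library apart. Osm and Lif, cytokines of the IL-6 family, were 3.16-fold (2.79 to 3.58) and 2.06-fold higher, and Lif lost its call when scaled by total reads. Il1b, a myeloid cytokine, was the lower gene, with 97, 17 and 21 reads. Tnf, stored and made by mast cells, stood at a log2 ratio of -0.41. Of 7 tested chemokines, Ccl7 was 2.49-fold higher (2.07 to 3.02) while Cxcl2 and Ccl6, both also made by macrophages, were 3.93-fold and 8.23-fold lower. Ccl2, Ccl3 and Ccl4 had ratios within 1.2-fold of equal, with log2 values of -0.23, -0.25 and 0.01.

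Among mast cell proteases, the genes that differed were not the most abundant ones per length. Of 13 tested chymases, granzymes and tryptases, 5 were higher and none lower, under both scalings. Cma1, the α-chymase, had 855 CPM in IL4Ra-/-, 1303 in WT and 4153 in IL4RaY709F, a ratio of 4.86 (4.64 to 5.09). Gzmb, the cytotoxic granzyme B, had 1931, 2099 and 6198 CPM, a ratio of 3.21 (3.11 to 3.32), and was read in 75 of 80 WT cells. The tryptase Tpsb2 stood at 2100, 3522 and 6867 CPM, a ratio of 3.27 (3.17 to 3.37). For Cma1 and Gzmb the step from IL4Ra-/- to WT was small beside that from WT to IL4RaY709F. Prss34, a tryptase better known from basophils, had 32, 101 and 265 reads, a ratio of 9.05 (6.26 to 13.5), and was read in 12 WT cells, while Mcpt8, the basophil-defining protease, had 41, 19 and 30 reads. Gzma had 3 reads in IL4Ra-/-, 1 in WT and 56 in IL4RaY709F (ratio 20.4, 6.63 to 102). By contrast Mcpt1, the mucosal mast cell chymase released into blood in gut anaphylaxis, had 34049, 22405 and 34364 reads, a log2 ratio of 0.14 that turned to the other side of 0 when scaled by total reads. Mcpt2, Mcpt4 and the carboxypeptidase Cpa3 had log2 ratios of 0.64, 0.69 and 0.39. Per kilobase of exon, Mcpt1 and Cpa3 stood at 14571 and 12979 CPM in IL4RaY709F, Mcpt2 and Mcpt4 at 8157 and 8099, and Gzmb, Tpsb2 and Cma1 at 4316, 4308 and 3810. Reads of near-identical protease genes may have been split among copies, so single values of Mcpt1, Mcpt2, Mcpt4 and the tryptases are uncertain.

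Granule amine and proteoglycan genes included 5 higher and no lower of 17 tested (median log2 ratio 0.45). Hdc, which makes histamine, had 8419 CPM in IL4Ra-/-, 12790 in WT and 17069 in IL4RaY709F. Its ratio of 2.03 (1.99 to 2.06) lay at the 2-fold limit, was not called when scaled by total reads and rose in both steps. Ddc, a decarboxylase of amine synthesis, was 2.66-fold higher (55, 49 and 134 reads). Xylt1, Chst11 and Ext1, enzymes that start, sulfate and extend glycosaminoglycan chains, were 3.25-fold (2.71 to 3.92), 2.62-fold (2.37 to 2.9) and 2.28-fold higher, Ext1 not when scaled by total reads. Tph1, which makes serotonin, Srgn, the core protein of granule heparin, and Slc18a2, the vesicle amine transporter, had log2 ratios of 0.58, 0.66 and 0.03. Among 23 genes of granule exocytosis, Rab38 was at the limit (2.01-fold) and Rab27a and Vamp7 were 2.45-fold and 2.09-fold lower, and the list's median of 0.08 turned to -0.17 when scaled by total reads.

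**Figure D3:**
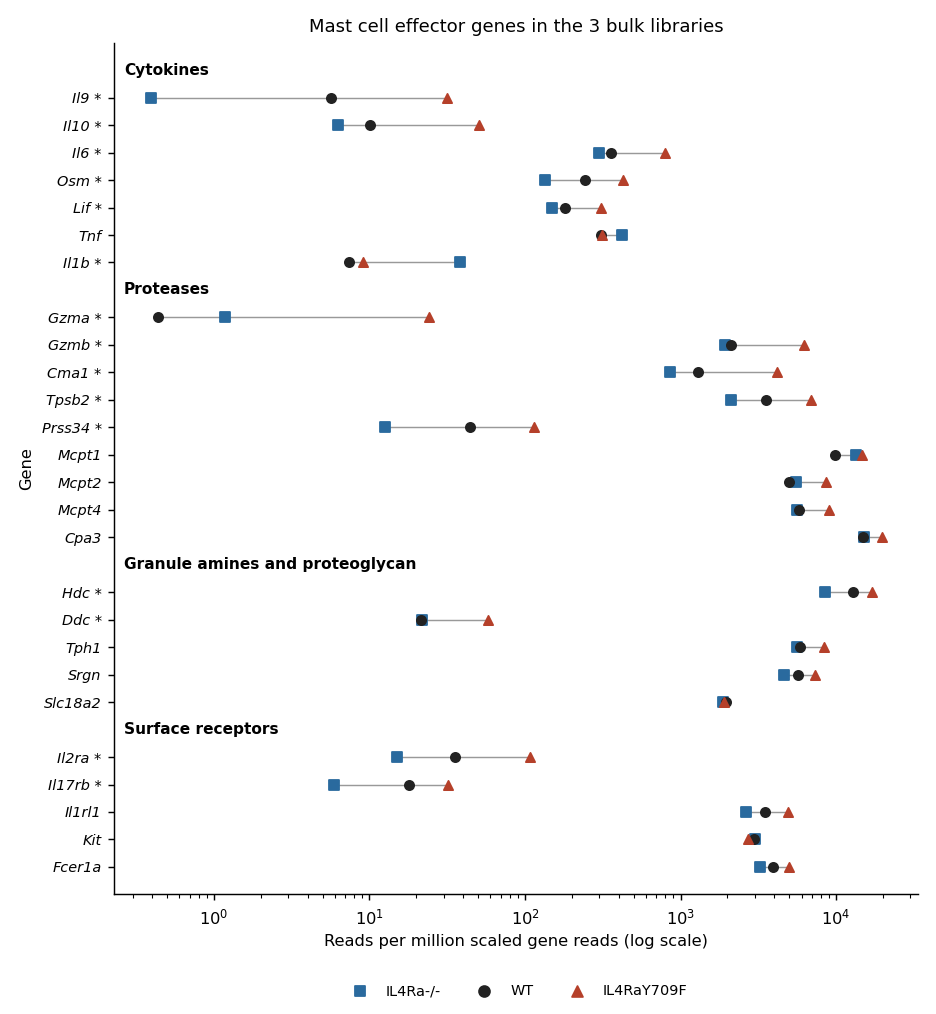
Level of effector and surface genes in the IL4Ra-/- (squares), WT (circles) and IL4RaY709F (triangles) libraries, in CPM on a log axis, with an asterisk for genes called between the mutants. Il9, Cma1, Prss34 and Il2ra span wide ranges in the order IL4Ra-/-, WT, IL4RaY709F, whereas Mcpt1, Slc18a2 and Kit lie close together.

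Receptor genes that mark a mast cell differed little. Kit, the stem cell factor receptor, had 2999 CPM in IL4Ra-/-, 2962 in WT and 2712 in IL4RaY709F, and Fcer1a, the IgE-binding chain, had 3254, 3904 and 4957. Their log2 ratios were -0.15 and 0.61. Gata2 and Ms4a2, the mast cell factor and the β chain of the IgE receptor, stood at 0.08 and -0.19. Of the 19 tested identity genes 3 were higher, namely Cma1, Tpsb2 and Hdc. Of 47 tested genes of IgE receptor signalling, 4 were higher and none lower, and the median log2 ratio of 0.21 turned to -0.04 when scaled by total reads. The 4 were Gab2, Pik3cd, Fyn, a kinase at the receptor (2.69-fold, 2.33 to 3.12), and Orai1, the pore of the store-operated calcium channel (27, 46 and 74 reads, 3-fold).

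Several cytokine receptor genes were higher too. Il2ra, the alpha chain of the IL-2 receptor, had 38 reads in IL4Ra-/-, 81 in WT and 249 in IL4RaY709F, a ratio of 7.16 (5.08 to 10.4). It shares the common gamma chain with Il7r, which was 2.2-fold higher and lost its call when scaled by total reads, and with Il9r, which was not called (388, 598 and 411 reads). Of 21 tested growth factor and alarmin receptors, 6 were higher and none lower. Il17rb, the IL-25 receptor chain, had 15, 41 and 74 reads, a ratio of 5.39 (3.07 to 10.1). The single-cell gate took cells without IL-17RB2, and the part of cells other than MMC9s in the Il17rb reads was not tested. Il10ra was 2.95-fold (2.63 to 3.31) and Il6st, the signal chain for the IL-6 family, 2.76-fold higher. The other 3, Tnfrsf9, Il17ra and Crlf2, were 2.27-fold, 2.12-fold and 2.04-fold higher, none of them when scaled by total reads. Il1rl1, the IL-33 receptor ST2 used in the single-cell gate, stood at 2639, 3486 and 4883 CPM, a ratio of 1.85 (1.8 to 1.91). Adora3, an adenosine receptor that enhances mast cell degranulation, was 3.12-fold higher (503, 651 and 1437 reads). The 15 tested G protein coupled receptors held 3 higher and 3 lower members with a median log2 ratio of -0.01, or 1 higher and 3 lower with a median of -0.26 when scaled by total reads. Among the 3 lower, C3ar1 and Ccr1 are also macrophage genes. Of 20 inhibitory receptors, Havcr2 (TIM-3) was 2.36-fold higher, not when scaled by total reads, and Cd72 was 2.63-fold lower.

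Some of the largest ratios were those of protease inhibitors and metal-binding proteins. Of 9 tested serpin genes 2 were higher. Serpina3f (chromosome 12, 104214544 to 104221129, plus strand) had 49 reads in IL4Ra-/-, 132 in WT and 564 in IL4RaY709F, a ratio of 12.6 (9.39 to 17.2). Serpina3g (chromosome 12, 104236245 to 104241939, plus strand), an intracellular inhibitor of cathepsins, had 171, 358 and 1581 reads, a ratio of 10.1 (8.63 to 11.9). The genes lie side by side in a cluster of close copies, so the split of reads between them is uncertain, but both were read in WT cells (35 and 47 of 80). Mt1 and Mt2, metallothioneins that bind zinc, were 5.75-fold (242, 481 and 1273 reads) and 7.65-fold higher (16, 30 and 112 reads). Dusp4, a phosphatase of MAP kinases, had 614, 1430 and 2860 reads, a ratio of 5.09 (4.67 to 5.57), and was the single gene called of 13 MAP kinase inhibitors.

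Several other single genes shared the order of the receptor. Bcl3, a nuclear IκB protein, had 72, 132 and 276 reads (4.19-fold, 3.22 to 5.51), while the 20 tested NF-κB genes held 1 higher member and 1 lower one, Cd83, with a median of 0.22 that became -0.02 when scaled by total reads. Ldlrad4, an inhibitor of TGF-β signalling, had 25, 62 and 132 reads (5.77-fold, 3.74 to 9.24). Ptgs1, the constitutive cyclooxygenase, was 2.74-fold higher (2.35 to 3.21). Phlda1 had 130, 205 and 659 reads (5.54-fold). Myc, a growth regulator, was 2.99-fold higher (38, 58 and 104 reads), and Csrnp1, a nuclear immediate early gene, 2.85-fold (2.65 to 3.08). Fas, a death receptor, had 31, 40 and 80 reads (2.82-fold). A different order was seen for Itpripl2, with 75, 62 and 448 reads (6.53-fold, 5.1 to 8.46), and for the tetraspanin Cd81, with 29, 7 and 126 reads (4.75-fold, 3.15 to 7.38). For Itpripl2 and Cd81 WT was the lowest library, so their order did not follow receptor activity.

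Genes of protein synthesis, which code for short and abundant transcripts, were on the higher side. Of 77 tested cytosolic ribosomal protein genes, 17 were higher and none lower. All 77 had a log2 ratio above 0 (76 when scaled by total reads), and WT lay between the mutants for 69. Among all 6319 tested genes, 292 were higher (4.62%) and 3668 had a log2 ratio above 0 (2271 when scaled by total reads). WT lay between the mutants for 2890 of the 6319 (45.7%). The median log2 ratio of the ribosomal protein genes was 0.72, or 0.47 when scaled by total reads, where 7 were called. Rplp1, a protein of the ribosomal stalk, had 689, 1387 and 1777 CPM (2.58-fold) and Rps9 695, 1399 and 1731 CPM (2.49-fold), with the larger step between IL4Ra-/- and WT. Among 62 tested nuclear genes of oxidative phosphorylation 4 were higher, none of them when scaled by total reads, and the median was 0.45 (0.20 by total reads). Transcript length moved with these ratios. The Spearman correlation of the log2 ratio with summed exon length was -0.27 across the 6319 genes, which share these libraries, and 4 equal groups of genes from shortest to longest had medians of 0.29, 0.15, 0.02 and -0.07. After subtracting the median of genes of like length, the ribosomal protein median was 0.42 and that of oxidative phosphorylation 0.14. The part of transcript length in these ratios was not tested further. The mitochondrial 12S rRNA mt-Rnr1 had 2104, 1819 and 7851 reads (4.08-fold, 3.89 to 4.28). The other mitochondrial rRNA tested, mt-Rnr2, had a log2 ratio of 0.64 and was not called. The 7 tested mitochondrial protein genes had a median log2 ratio of 0.08 (-0.16 when scaled by total reads) and no call.

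Other metabolic and stress lists held few calls. Of 25 tested genes of glycolysis and the pentose phosphate route, 1 was higher, Hk2 (2.12-fold, not when scaled by total reads), and the median log2 ratio was 0.46. Of 29 unfolded protein response genes, Atf6 and Ddit3 were 2.21-fold and 2.08-fold higher, neither when scaled by total reads, and the chaperone gene Sdf2l1 was 2.38-fold lower. Among 17 PIM and apoptosis genes, Pim2, Fas, Bcl2l1 and Pim3 were higher, the last 2 not when scaled by total reads. Of 15 interferon response genes, Ifitm3 was 2.38-fold higher and Gbp3 2.09-fold lower, and the median of 0.20 turned to -0.041 when scaled by total reads.

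Cell cycle transcripts were lower in IL4RaY709F. Of 10 tested mitosis genes 6 were lower and none higher (median log2 ratio -1.62), and of 19 tested replication genes 9 were lower and none higher (-0.90). Mki67, the proliferation antigen, had 331 reads in IL4Ra-/-, 161 in WT and 83 in IL4RaY709F (3.65-fold lower, 2.86 to 4.7). Top2a, the topoisomerase of dividing cells, had 189, 78 and 54 reads (3.2-fold lower, 2.35 to 4.42). These 2 genes were read in 17 and 15 of the 80 WT cells. Mcm7 and Mcm5, parts of the replicative helicase, were 4.26-fold and 3.5-fold lower. The replication genes with most reads were not called, and Pcna and Rfc2 had log2 ratios of 0.16 and 0.07. The summed reads of the 50 mitosis genes were 2465 in IL4Ra-/-, 1544 in WT and 1205 in IL4RaY709F. The cell cycle genes moved in the same direction as the macrophage and antibody genes that follow, and whether the dividing cells were MMC9s was not tested.

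Macrophage markers were lower in IL4RaY709F and highest in IL4Ra-/-. Of 13 tested macrophage or monocyte genes 11 were lower and none higher (median log2 ratio -2.44), against 3.5% of all tested genes lower. For 12 of the 13 the read minimum was met through IL4Ra-/-, the library with more reads, so this count partly follows from the minimum. Lyz2, lysozyme, had 414 reads in IL4Ra-/-, 103 in WT and 40 in IL4RaY709F (9.47-fold lower, 6.83 to 13.4). Csf1r, the macrophage growth factor receptor, had 173, 40 and 16 reads, Adgre1 (F4/80) 52, 18 and 7, and the complement gene C1qa 157, 31 and 19. The 18 macrophage genes read in under 5% of WT cells summed to 1755, 490 and 275 reads, 5.84-fold lower (5.14 to 6.65). All 24 genes of the list, with those more widely read in MMC9s, summed to 4771, 2592 and 2469 reads, 1.77-fold lower (1.68 to 1.86). No defining macrophage marker was at 0 in either mutant. The lysosomal genes that were lower, Ctss, Lgmn, Ctsh and Scarb2, and Mrc1, Il1b, Ccl6, Cxcl2, Ccr1 and C3ar1 above, moved with this list.

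Antigen presentation and antibody genes followed the same order. All but 1 of 6 tested MHC class II genes were lower, and the 12 class II genes found summed to 2538 reads in IL4Ra-/-, 872 in WT and 750 in IL4RaY709F. Cd74, the invariant chain, had 1041, 336 and 289 reads (3.29-fold lower, 2.89 to 3.77). Igha, the IgA heavy chain constant gene, had 17406, 8453 and 3748 reads (4.25-fold lower, 4.1 to 4.4). All 6 tested constant genes and 53 of 56 tested variable and joining segments were lower, against 3.5% of all tested genes. Each of them had more reads in IL4Ra-/- and met the read minimum through that library, so these counts partly follow from the minimum. Without it, the 381 segments found summed to 8318 reads in IL4Ra-/-, 3386 in WT and 1699 in IL4RaY709F. Jchain, which joins IgA dimers in plasma cells, had 4811, 1851 and 916 reads (4.8-fold lower, 4.48 to 5.16). The share of reads in immunoglobulin genes was 1.63% in IL4Ra-/-, 0.743% in WT and 0.314% in IL4RaY709F. Sdc1, the plasma cell marker syndecan-1, had 27, 18 and 5 reads. The plasma cell list was split: of its 5 tested genes 2 were higher and 2 lower. Its median log2 ratio was 0.24, or -0.007 when scaled by total reads. The B cell genes Cd79a and Ms4a1 were scarce, with 24 and 14 reads in IL4Ra-/- and 10 and 4 in IL4RaY709F. Irf4 is also a plasma cell gene, and the part of plasma cells in its reads was not tested.

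The remaining cell types were followed by the genes of their lists that were rare in MMC9s, read in under 5% of WT cells, and these gave few reads. The rare genes of the epithelial list summed to 441 reads in IL4Ra-/-, 68 in WT and 99 in IL4RaY709F, although Epcam itself had 29, 29 and 24. T cell genes rare in MMC9s summed to 68, 31 and 22 reads, with Trac at 1, 1 and 0, and ILC2 genes to 46, 18 and 17, with Gata3 at 5, 4 and 5. The 15 rare stromal or endothelial genes summed to 103, 59 and 31 reads, while all 18 of that list summed to 3817, 4014 and 4137. Summed over all members, the epithelial list had 2246, 2549 and 2441 reads, and the T cell list 1361, 1201 and 1501. The full ILC2 list had 6931, 8312 and 11997 reads, most of them of Il1rl1, whose protein ST2 was in the single-cell gate. Of its 5 tested genes 4 were higher (3 when scaled by total reads) and none lower, with a median log2 ratio of 2.02. Il2ra, described above with the cytokine receptors, was among the higher ones. Whether the number of ILC2s differed was not tested. Rare dendritic cell genes summed to 182, 102 and 114 reads. Other rare sums were not highest in IL4Ra-/-: the basophil sum was 96, 133 and 130 reads, that of eosinophils 90, 108 and 83, and that of erythroid cells 15, 25 and 13. The eosinophil gene Epx was at 0 in all 3 libraries. Rare neutrophil genes summed to 28, 23 and 15 reads, and S100a8 had 0, 1 and 0. Gata3 at 5 reads stands beside Il9, Il13 and Il17rb, which ILC2s also express. Il9 was read in 1 WT cell, so the part of cells other than MMC9s in its count was not tested. Over the 1305 genes read in at least 50% of WT cells, 85 were higher (6.51%) and 1 lower (0.0766%). Under the main scaling the genes most widely read in MMC9s thus held almost no lower calls. That split depends on the scaling: their median log2 ratio was 0.27, against 0.09 over all genes. TMM factors taken from these genes moved every log2 ratio by -0.28, which gave 136 higher and 389 lower genes among all tested.

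**Figure D4:**
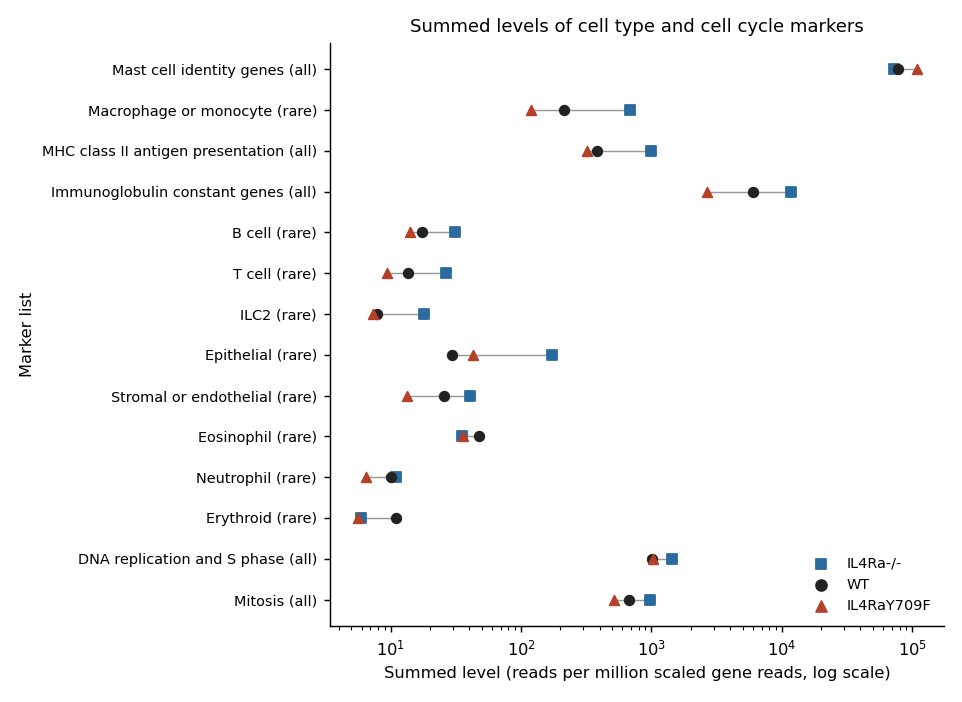
Summed level of marker lists in the IL4Ra-/- (squares), WT (circles) and IL4RaY709F (triangles) libraries, in CPM on a log axis. Rows marked rare sum the listed genes read in under 5% of WT single cells, and rows marked all sum every member. Macrophage, MHC class II and immunoglobulin rows fall from IL4Ra-/- through WT to IL4RaY709F. The mast cell row rises under this scaling, but WT is its lowest library when scaled by total reads.

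**Figure D5:**
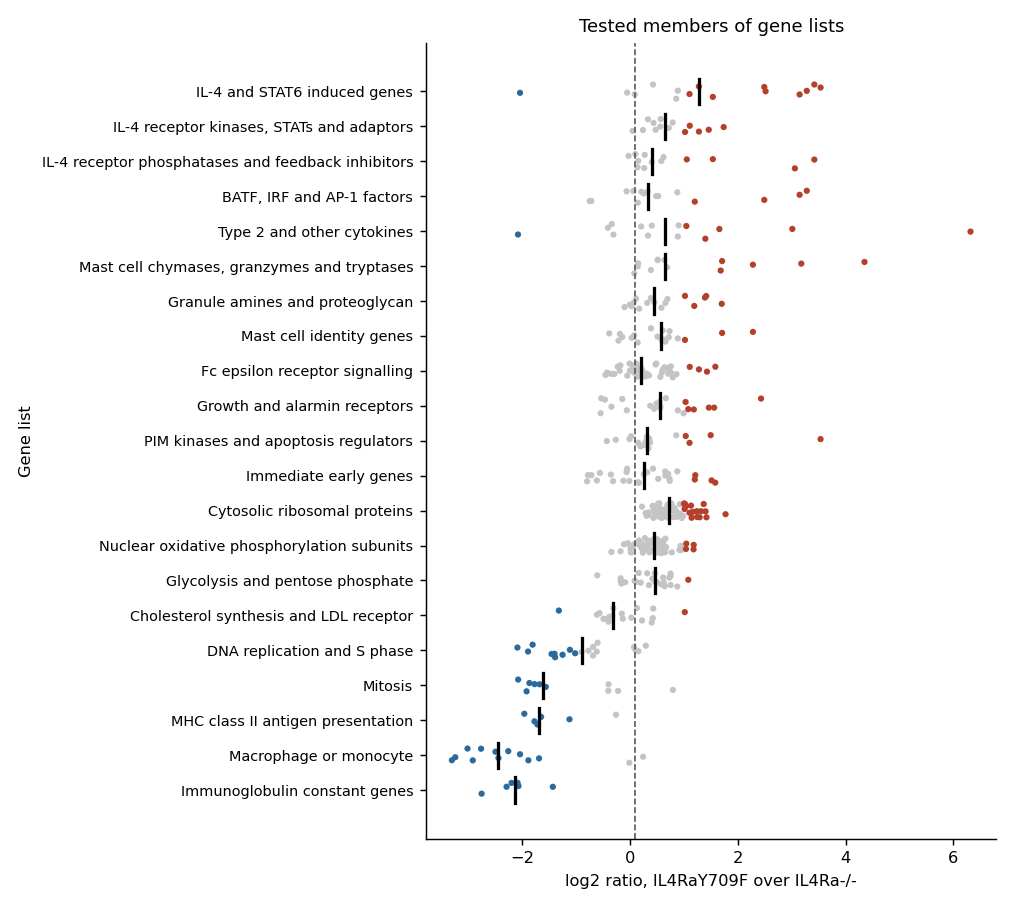
Log2 ratio of IL4RaY709F over IL4Ra-/- for each tested member of 21 gene lists (points, red higher, blue lower, grey not called), with the list median as a black bar and the median of all tested genes, 0.09, as a dashed line. The list of IL-4 and STAT6 induced genes has the highest median of the 21 shown, 1.28. Lists not shown had higher medians: cytotoxic lymphocyte (3.02, 2 tested genes), ILC2 (2.02, 5 tested genes) and mitochondrial rRNAs (1.33, 2 tested genes). The lists were chosen with earlier results of these data known, so the rank of a list is a description. The cell cycle, MHC class II, macrophage and immunoglobulin lists have medians below 0.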

How the data were processed

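HISAT did the alignment and featureCounts (Subread 2.0.0) the counting, per the submitters' processing notes. Per the labels, RNA came from a column kit and libraries were standard Illumina ones. The values the authors deposited, for bulk libraries and single cells, are raw counts of reads per gene, and RPKM values were not used. The notes name GRCm38 and mm9 without roles. Of 55471 gene IDs, 55230 were found in the GRCm38 annotation GENCODE M21, 54900 of them (99.4%) at the same coordinates. The sources used here do not give the strand setting or the treatment of multi-mapping reads, so overlapping and antisense genes could not be told apart, and near-identical genes (proteases, Serpina3, immunoglobulin, MHC class II) are uncertain.

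CPM used TMM factors over the 3 bulk libraries (edgeR 4.0.16, R 4.3.3), 0.922 for IL4RaY709F, 1.09 for IL4Ra-/- and 0.994 for WT. Ratios carry exact conditional binomial (Clopper-Pearson) 95% intervals (SciPy 1.17.1). The steps were tested on simulated data. Other scalings, read minimums, a length adjustment and other gene sets were tried as alternatives. Cells with at least 500 genes and 10000 reads were kept, 80 of 81 (163596 to 2210211 reads), treated as 1 sample because no animal is named. Members and 57 gene lists were chosen with earlier results of these data known. Named genes were 17 fixed ones, the 15 most extreme called genes of 200 reads or more in each direction (also among genes read in 2 WT cells), and in each list up to 6 called members per direction and the 4 with most reads. Tnf, Jak3, Tyk2, Il13ra1, Il13ra2, Arg1, Fcer2a and Chil3 were added after their values were seen.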

Additional observations from a re-analysis of the deposited data

How the results depend on the processing

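Scaling set how many genes were called higher. The main counts of 292 higher and 221 lower genes became 145 and 359 when scaled by total reads, and 136 and 389 with TMM factors from genes read in at least 50% of WT cells, a log2 shift of -0.24 and -0.28. All 221 lower genes kept their call under both, and 145 and 136 of the higher genes did. A minimum of 20 reads gave 544 lower genes, one of 200 reads 145 higher and 29 lower, and no minimum 556 and 871. Adjusting for exon length left 187 higher, and taking genes read in at least 2 WT cells left 146 lower. Ccl7, Rplp1 and Ifitm3 kept their call when scaled by total reads but lost it after length adjustment. Ifitm3 also lost it with TMM factors from genes read in at least 50% of WT cells. DESeq2 size factors (279 and 231) and leaving out immunoglobulin genes (287 and 163) moved both counts by less than 1.5 times.

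Of the list medians, 9 turned sign when scaled by total reads: IgE receptor signalling -0.036, integrins -0.15, mast cell transcription factors -0.056, NF-κB -0.018, TGF-β -0.19, mitochondrially encoded genes -0.16, exocytosis -0.17, interferon -0.041 and housekeeping -0.026. With TMM factors from genes read in at least 50% of WT cells these were -0.069, -0.18, -0.089, -0.051, -0.22, -0.19, -0.20, -0.074 and -0.060, and immediate early genes turned to -0.021. After length adjustment DUSP and Sprouty genes turned to 0.054, mitochondrially encoded genes to -0.32, exocytosis to -0.087, interferon to -0.11 and housekeeping to -0.11. With at least 200 reads G protein coupled receptors turned to 0.21 and lysosomal genes to 0.16. Among 1400 alternative values of named genes, no called gene changed sign, and 40 uncalled genes did, Mcpt1 and Ccl4 among them. No paired analysis was possible because each genotype had 1 library, and for the same reason no replicate could be left out. Depth limits genes of few reads, such as Il9 and Gzma, to wide intervals, and the intervals do not cover the spread between pools of mice.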

Other observations

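Some of the most unequal genes lie near the altered receptor gene or belong to groups the text has not described, and these were chosen after their values were seen. Gdpd3, which lies 1.21 Mb from the start of Il4ra on chromosome 7, had 1 read in IL4Ra-/-, 0 in WT and 182 in IL4RaY709F, and 10 reads in none of the 80 WT cells. Itpripl2 and Xylt1 lie on the other side of it, at -7.07 and -8.17 Mb. Of 64 tested genes within 5 Mb of Il4ra, 4 were higher (6.25%) and 3 lower (4.69%), and within 10 Mb 6 of 86 were higher (6.98%) and 5 lower (5.81%), against 31 of 438 (7.08%) and 14 (3.2%) for chromosome 7 as a whole.

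The ribosomal pseudogenes Rps15a-ps8 and Rps13-ps1 had 0, 0 and 110 reads and 5, 5 and 165 reads in IL4Ra-/-, WT and IL4RaY709F, and their reads may be shared with the parent genes. H19, an imprinted RNA of fetal tissue, had 318 reads in IL4Ra-/-, 90 in WT and 430 in IL4RaY709F, so WT was the lowest. In the cholesterol pathway, Hmgcs1 had 325, 197 and 119 reads (2.5-fold lower, 2.02 to 3.11), while the median log2 ratio of 19 tested members was -0.31.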
